A study of Sus scrofa domesticus with 4 samples.

Results

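TNFAIP3 and NFKBIA encode inhibitors of NF-kappaB signalling, and their transcripts were followed here in explants of pig myometrium, the muscle wall of the uterus, cultured with or without orexin A (OXA). The members are all non-control array probes designed to a RefSeq transcript of either gene. These are 2 of 3029 genes that could be named on the array, read by 3 of its 43603 probes, 1 for TNFAIP3 (A_72_P374863) and 2 for NFKBIA (A_72_P165846 and A_72_P342398). All 3 passed the filter on dim probes. The tissue came from 4 gilts (Large White x Polish Landrace, 7 to 8 months, 120 to 130 kg) on days 15 to 16 of gestation. OXA-treated explants were kept for 24 h with the peptide after 2 h of preincubation, and non-treated explants for the same time without it. The sample labels give 10 nM OXA and the design text of the series gives 10 µM, and this was not settled by the files. Each of 4 Agilent arrays set an OXA-treated RNA against a non-treated RNA. OXA was labelled with Cy5 on arrays 1 and 3 and with Cy3 on arrays 2 and 4, per the sample labels.

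NF-kappaB transcription factors are held in the cytoplasm by IkappaB proteins, of which IkappaB alpha, the product of NFKBIA, is the best known. Cytokines such as tumour necrosis factor and interleukin 1 activate the IkappaB kinase complex, IkappaB alpha is degraded, and the freed factors enter the nucleus. NFKBIA and TNFAIP3 are themselves targets of NF-kappaB, and newly made IkappaB alpha returns the factors to the cytoplasm. TNFAIP3 encodes A20, a ubiquitin-editing enzyme that acts upstream of the kinase complex and dampens the signal there. In the uterus, NF-kappaB takes part in cytokine responses at implantation and at labour, and the elongating pig conceptus secretes a form of interleukin 1 beta of its own.

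Both genes were chosen by their ratios of OXA over non-treated tissue, which were above 0 on all 4 arrays for each. These ratios are therefore given as a description, with no test for the members. The direction of the ratios is not settled. The sample labels swap the dyes, while the labelling protocol assigns Cy5 to the OXA RNA and Cy3 to the control RNA with no mention of a swap. Arrays 2 and 4 share a dye orientation, yet their log2 ratios correlated at r = -0.38 over the tested probes, and those of arrays 1 and 2 at r = -0.59, while arrays 1 and 4 had r = 0.62. Arrays 1 and 3, which also share an orientation, had r = 0.23. Array 3 had r = -0.30 with array 2 and r = -0.06 with array 4. Values below follow the sample labels, and the values under the other readings stand beside them.

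The 4 arrays lie on 1 slide and in 1 scan, so no such batch could be fitted. The share of probes well above background ran from 39.9% to 49.7% over the OXA channels and from 41.5% to 61.1% over the non-treated channels. Of the markers of smooth muscle, 5 of 10 had a named probe (ACTA2, DES, CNN1, MYLK and SMTN), and all 5 were well above background on at least 3 arrays. All 5 markers of lymphocytes were on the array, and 0 of them passed this filter. Fewer cells of a type and less RNA per cell cannot be told apart in such tissue RNA.

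TNFAIP3 had a processed signal of 323, 453, 400 and 361 intensity units in the OXA channels of arrays 1 to 4, against 158, 254, 271 and 125 in the non-treated channels. The processed signal is the spot intensity after the scanner software subtracted background and balanced the dyes within the array. Every OXA level lay above every non-treated level, and the lowest OXA level (array 1) and the highest non-treated level (array 3) were neighbours in the order, 0.26 apart on the log2 scale. The mean was 384 ± 55.3 in OXA channels and 202 ± 71.5 in non-treated channels (SD, n = 4 each). Such a separation of levels was seen for 74 of 19505 tested probes, or 0.379%. It requires a ratio above 0 on all 4 arrays, which 773 of 19500 probes had and by which TNFAIP3 was chosen. These shares, here and on the scaled levels below, therefore do not measure how unusual a gene chosen in this way is. The levels are not normalized between arrays. Divided by the median tested probe of their own channel, a scaling added after seeing the data, the OXA levels were 0.82, 1.21, 0.99 and 0.75 and the non-treated levels 0.39, 0.70, 0.67 and 0.25. The groups then still did not overlap, with a gap of 0.11 (log2), a separation that 0.354% of tested probes had on this scale. The order of the channels depends on the dyes as labelled. If OXA was in Cy5 throughout, the TNFAIP3 levels overlap. They also overlap if array 2 alone or array 4 alone is turned.

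The deposited log2 ratios of TNFAIP3, OXA over non-treated, were 1.03, 0.83, 0.56 and 1.54 on arrays 1 to 4. Their mean was 0.99 ± 0.41 (SD, n = 4), or 1.99-fold. The scanner software's own error of these ratios was 0.24, 0.23, 0.22 and 0.26 (log2), so each ratio was between 2.58 and 5.82 times its error. On array 4, which had the highest ratio, the non-treated channel read lowest, at 125 units after correction and 8.31 times the local background before it. The size of the TNFAIP3 ratio depended on the processing. With normexp background correction and loess on the median signals the ratios were 0.54, 0.69, 0.56 and 0.81, with a mean of 0.65 ± 0.13 (SD, n = 4). The same loess on median signals without background subtraction gave a mean of 0.64. These settings change the signal and the normalization together, and which of them moved the value was not tested. The values of arrays 1 and 4 moved most, and the direction held on each array after normexp and loess.

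**Figure D1:**
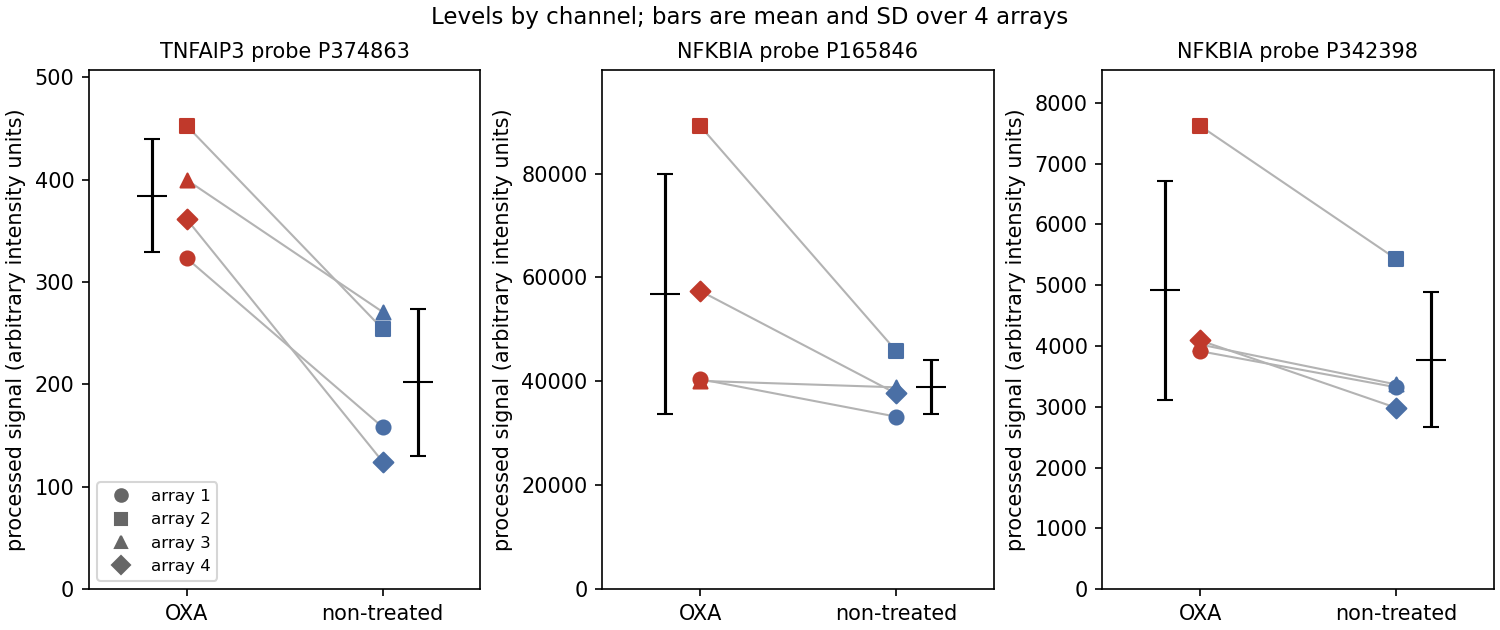
Processed signal of the 3 probes in OXA (red, left) and non-treated (blue, right) channels, with a line joining the channels of an array, and black bars for the mean and SD over 4 arrays. For TNFAIP3 the OXA points lie between 323 and 453 and the non-treated points between 125 and 271, while the groups overlap for both NFKBIA probes.

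NFKBIA was read by a pair of probes that both had ratios above 0 on each array, with smaller mean ratios than TNFAIP3. Probe A_72_P165846 had 40420, 89179, 40095 and 57420 intensity units in the OXA channels of arrays 1 to 4, against 33216, 45937, 38850 and 37679 in the non-treated channels. The OXA level exceeded the non-treated level within each array, but the groups overlapped, since the non-treated level on array 2 was above the OXA levels on arrays 1 and 3. The log2 ratios were 0.28, 0.96, 0.05 and 0.61, with a mean of 0.47 ± 0.40 (SD, n = 4), or 1.39-fold. On array 3 the ratio was 0.22 times its scanner error, so the OXA and non-treated signals there were not distinguishable. The ratio was 1.38 times its error on array 1, 4.31 times on array 2 and 2.87 times on array 4.

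Probe A_72_P342398 of NFKBIA had 3914, 7621, 4025 and 4091 units in the OXA channels, against 3322, 5434, 3368 and 2985 in the non-treated channels. Array 2 read high in both groups, and the groups overlapped because of it. The log2 ratios were 0.24, 0.49, 0.26 and 0.45, with a mean of 0.36 ± 0.13 (SD, n = 4), or 1.28-fold. They were 1.15, 2.34, 1.25 and 2.18 times their scanner error on arrays 1 to 4. The ratios of the A_72_P165846 probe minus those of A_72_P342398 averaged 0.11 ± 0.28 (SD, n = 4) and were below 0 on array 3, so the probes differed by less than the spread between arrays. Averaged over both probes, NFKBIA had a log2 ratio of 0.42.

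Both NFKBIA probes had their higher ratios on arrays 2 and 4, where OXA was labelled with Cy3. Probe A_72_P165846 averaged 0.16 on the arrays with OXA in Cy5 and 0.78 on those with OXA in Cy3, and A_72_P342398 averaged 0.25 and 0.47. For TNFAIP3 these means were 0.80 and 1.18. A dye term in the limma fit, which measures whether a probe reads brighter in Cy5 than in Cy3 whatever the treatment, was -0.31 for A_72_P165846, -0.11 for A_72_P342398 and -0.19 for TNFAIP3 (log2, limma adjusted p = 1 for each). limma called a dye effect for 0 of 19505 probes, with 477 (2.45%) at an unadjusted p under 0.05. The ratio of TNFAIP3 minus that of NFKBIA (A_72_P165846) was 0.75, -0.12, 0.52 and 0.93 on arrays 1 to 4, a mean of 0.52 ± 0.46 (SD, n = 4). TNFAIP3 thus had the higher ratio on arrays 1, 3 and 4, and NFKBIA on array 2.

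**Figure D2:**
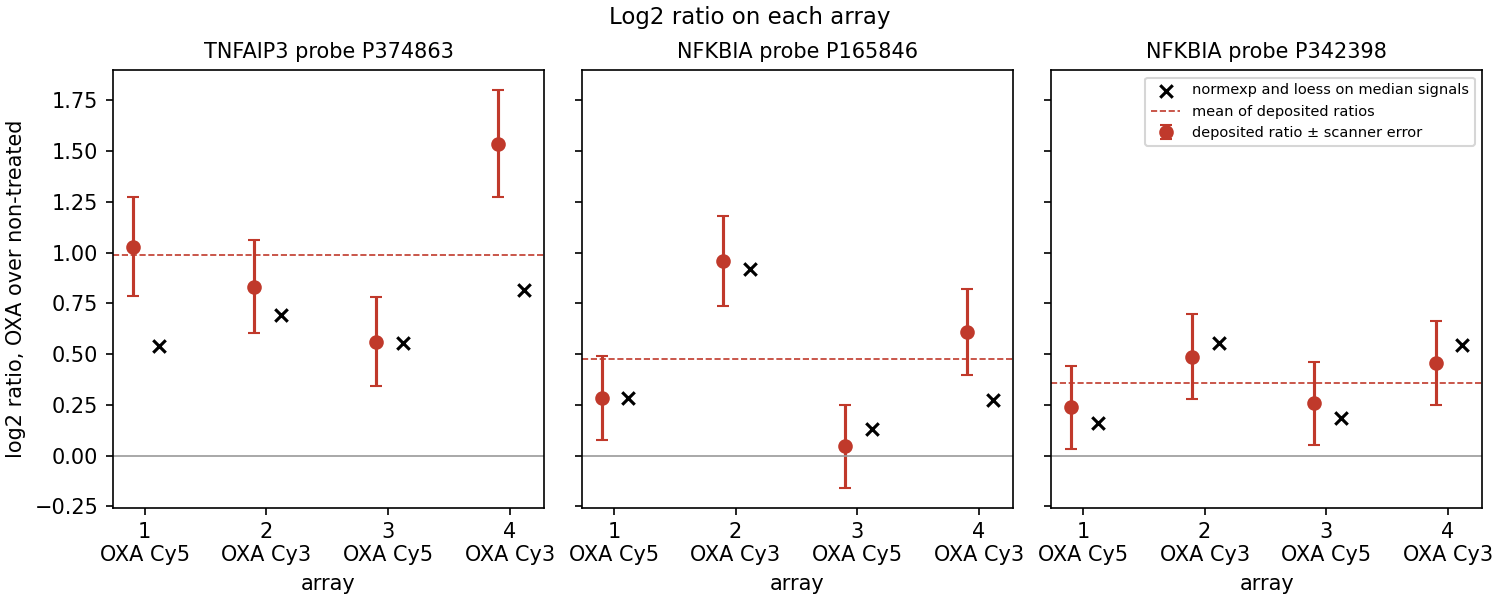
Log2 ratio of OXA over non-treated on each array (red points, deposited values with the scanner software's error, and their mean as a dashed line; black crosses, normexp and loess on median signals). All deposited ratios are above 0, from 0.05 (NFKBIA A_72_P165846, array 3) to 1.54 (TNFAIP3, array 4), and the crosses of TNFAIP3 lie lower on arrays 1 and 4.

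Across all probes, limma called 0 of 19505 probes for OXA (0% called in either direction, lowest adjusted p = 0.998), with 235, or 1.2%, at an unadjusted p under 0.05. Under the other readings of the dyes limma also called 0 probes for OXA. The lowest limma adjusted p was 0.0695 with array 2 turned, 0.99997 with array 4 turned and 0.31 with OXA in Cy5 throughout. A separate-channel fit in limma called 0 of 19442 probes, with 596 (3.07%) at an unadjusted p under 0.05. The log2 ratio was above 0 on all 4 arrays for 3.96% of tested probes, and for 5.79% of 1985 named genes when each was read by its brightest tested probe. All 3 probes of TNFAIP3 and NFKBIA were among them, as their choice fixed. With the direction of array 2 turned and each dye orientation weighted equally, the estimates were 0.89 for TNFAIP3 and 0.20 for NFKBIA. With array 4 turned they were 0.43 and 0.43. In either case the turned array itself read below 0 for both genes, so neither was above 0 on all 4 arrays. If the labelling protocol holds and Cy5 marked OXA throughout, the estimates were -0.19 and -0.31. The effect of the dye cannot then be told apart from that of OXA.

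**Figure D3:**
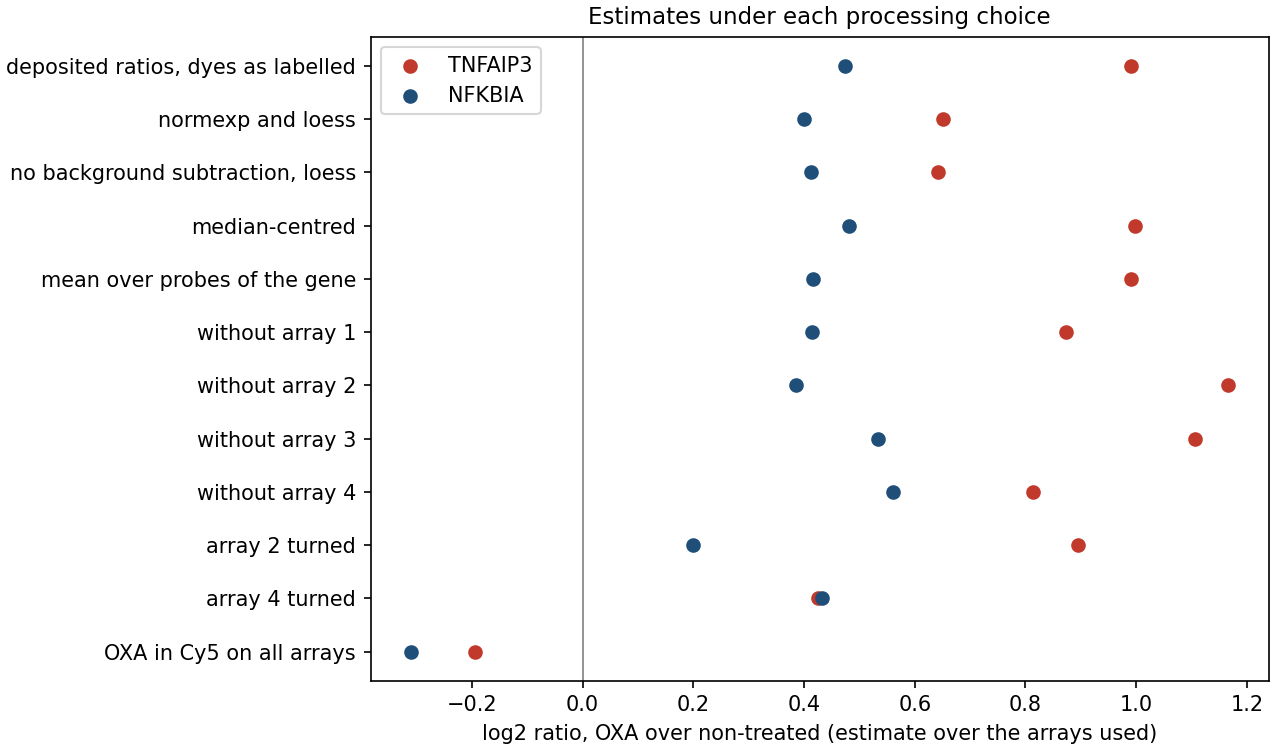
Estimated log2 ratio of OXA over non-treated for TNFAIP3 (red) and NFKBIA (blue, probe A_72_P165846) under each processing choice, a row per choice. TNFAIP3 runs between -0.19 and 1.17 and NFKBIA between -0.31 and 0.56, and both lie below 0 in the bottom row alone, where Cy5 marks OXA throughout.

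The other genes of the pathway had ratios on both sides of 0. Of those listed, 57 had a named probe and 46 were tested. limma called 0 of the 46 higher and 0 lower (lowest adjusted p = 0.998), with 1, TLR6, at an unadjusted p under 0.05. The TLR6 probe was dim, at percentile 3.09 of tested probes by mean log2 signal. The median log2 ratio of the 46 genes was 0.07, against 0.08 over all 1985 tested genes. Of the 46, 27 had a mean above 0, against 61.2% of all tested genes. The array medians were 0.08, -0.16, -0.05 and 0.36. The list's median was below 0 without array 1 (-0.036) or array 4 (-0.048), with array 4 turned (-0.10) and when Cy5 was taken to mark OXA throughout (-0.018).

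Of the NF-kappaB subunits, NFKB1, the precursor of p50, had a log2 ratio of 0.08 ± 0.58 and RELA, the p65 subunit, had 0.15 ± 0.52 (SD, n = 4). Each was above 0 on arrays 1 and 4 alone. NFKB2, REL and RELB had no named probe, nor had any of the 6 other IkappaB proteins listed, so NFKBIA was the single IkappaB gene that could be read here. In the kinase complex and its activators, 2 of 5 tested genes had means above 0 and 3 below. CHUK and IKBKG, genes of the complex, were added to the named genes after their values were seen. CHUK, which encodes the kinase subunit IKK alpha, was below 0 on all 4 arrays, between -1.19 and -0.25. Its mean was -0.69 ± 0.48 (SD, n = 4), and its other probe averaged -0.62. IKBKG had 0.57, -1.08, -0.05 and 0.96 on arrays 1 to 4, with a mean of 0.10 ± 0.89 (SD, n = 4). TBK1, an IKK-related kinase, had -0.33 ± 0.77, MAP3K7, the kinase TAK1 that activates the complex, had -0.24 ± 0.52, and its binding partner TAB1 had 0.20 ± 0.24.

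Of the ligands, 7 of 7 tested genes had means above 0 and 0 were above 0 on all 4 arrays. IL1B, which encodes interleukin 1 beta, had -2.58, 0.19, 1.28 and 1.27 on arrays 1 to 4, the widest spread among the ligands (SD of 1.82). IL1B2, the pig gene for the conceptus form, had 0.62, -0.16, 0.35 and 1.53. These genes are related copies, and whether their probes read each other's transcripts was not tested. TNF, which encodes tumour necrosis factor and was added to the named genes after its values were seen, had 0.67, -0.24, 0.29 and 0.66 on arrays 1 to 4. IL18, an interleukin 1 family cytokine, had 0.16 ± 0.34 (SD, n = 4).

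Among receptors, 5 of 10 tested genes had means above 0. CD40, a receptor of immune and vascular cells, had 0.30 ± 0.43, TNFRSF1A, the main receptor for tumour necrosis factor, had -0.20 ± 0.51, and LY96, the co-receptor of TLR4, had 0.22 ± 0.43 (SD, n = 4). For TNFRSF1A the 3 probes differed in sign, from -0.20 to 0.19. Without array 2, the second receptor for tumour necrosis factor, TNFRSF1B, was the 1 gene of the list that limma called (1.27, adjusted p = 0.0211), where 1093 probes were called over the whole array. In that fit the spread comes from a single pair of arrays. On arrays 1 to 4 TNFRSF1B had 1.47, -0.16, 0.67 and 1.47, a mean of 0.86 ± 0.78 (SD, n = 4). Its probe was dim, at percentile 19.5 of tested probes by mean log2 signal. Of the adaptors, TRAF6, a ubiquitin ligase of the interleukin 1 and Toll-like receptor branch, had 0.25 ± 0.14, IRAK4, a kinase of that branch, had -0.10 ± 0.37 and TICAM2 had 0.01 ± 0.76. TNIP1, which encodes an A20-binding partner, was the single other inhibitor tested, with 0.36, -0.68, 0.06 and 0.69 on arrays 1 to 4.

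Among genes that NF-kappaB is known to induce, 8 of 18 had means above 0 and 10 below, with a median of -0.045. The brightest were CXCL10, an interferon-induced chemokine, with 0.17 ± 0.85, CXCL2, a neutrophil-attracting chemokine, with 0.08 ± 0.76, and CCL2, a monocyte-attracting chemokine, with -0.13 ± 0.26 (SD, n = 4). The probes of CCL2 differed in sign, from -0.13 to 0.22, and so did those of CXCL10, from -0.015 to 0.17. In the whole list, 4 of 46 genes were above 0 on all 4 arrays, against the 5.79% of all genes. They are named here after their values were seen. ICAM1, an adhesion molecule, had 0.53, 0.47, 0.35 and 0.46, and CXCL8, interleukin 8, had 0.26, 0.47, 0.39 and 0.88. TRAF6 and TAB1 were the others. A further 5 of 46 were below 0 on all 4 arrays, against 2.87% of all genes. These were CHUK, CFB (complement factor B, mean -0.56) and the Toll-like receptor genes TLR1 (-0.49), TLR4 (-0.17) and TLR6 (-0.66, from a dim probe).

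**Figure D4:**
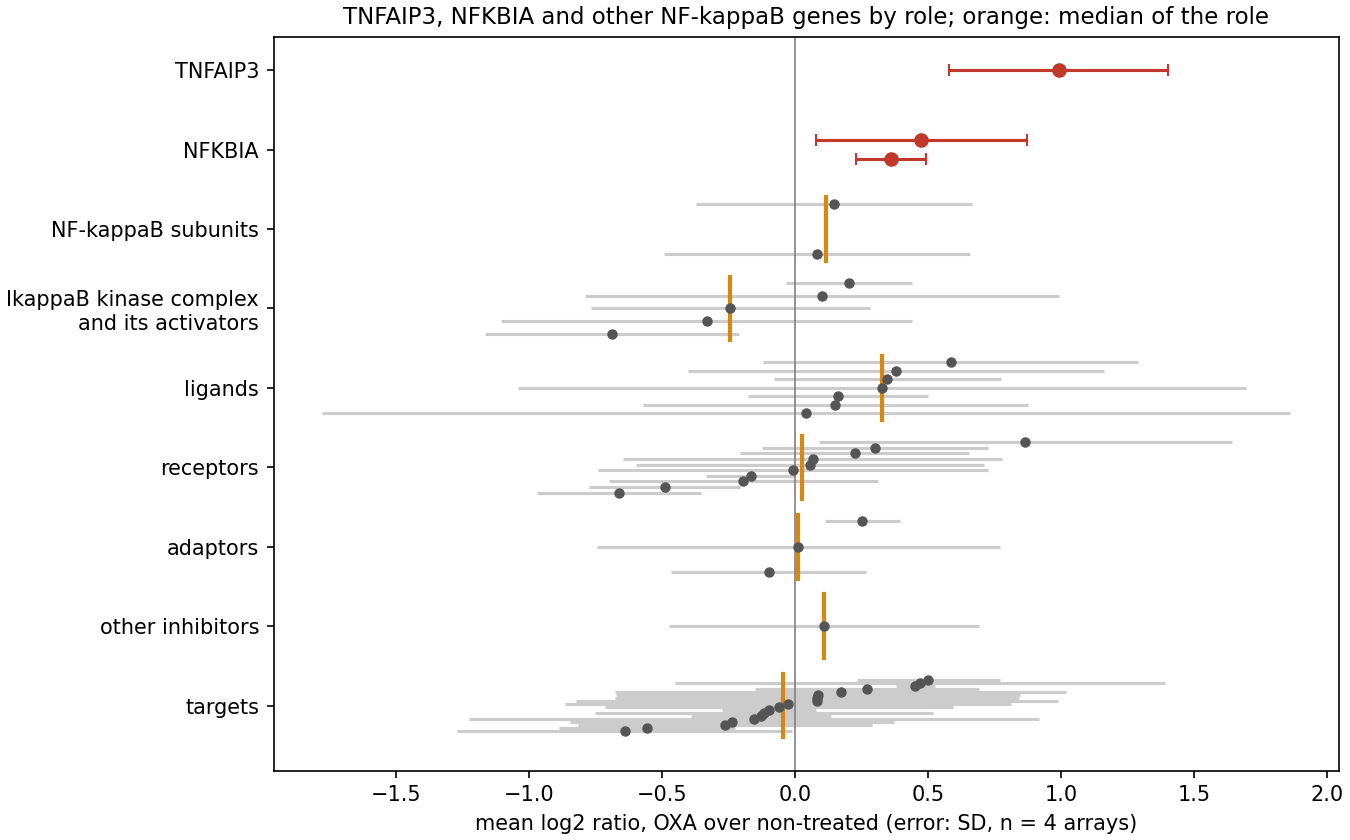
Mean log2 ratio of OXA over non-treated for the probes of TNFAIP3 and NFKBIA (red) and for other tested NF-kappaB genes by role (grey, brightest probe), with the SD over 4 arrays as the bar and the median of a role in orange. TNFAIP3 lies at 0.99 and NFKBIA at 0.47 and 0.36, and medians of the roles run between -0.24 and 0.33.

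The named genes with ratios most like those of TNFAIP3 were ranked by the root mean square difference of the 4 log2 ratios, over 1983 genes. ACE, the angiotensin-converting enzyme, was nearest at 0.36, followed by VEGFA, the angiogenic growth factor, at 0.36, LOC595122 at 0.38, ABCF1 at 0.39 and PCDH7, a protocadherin, at 0.39. ACE had 1.02, 0.33, 0.49 and 1.03 on arrays 1 to 4, so it too was highest on arrays 1 and 4. The 4 tested probes of ABCF1 differed in sign, from -0.20 to 0.88. For NFKBIA (A_72_P165846) the nearest was KTN1, the kinesin-binding membrane protein kinectin, at 0.14, with ratios of 0.10, 0.83, 0.15 and 0.72. PITPNC1, a phosphatidylinositol transfer protein, followed at 0.17, TXNIP, a thioredoxin-binding protein, at 0.17, JAK1, a cytokine receptor kinase, at 0.19 and PIK3R5, a regulatory subunit of phosphoinositide 3-kinase, at 0.21. The tested probes of PITPNC1 (-0.045 to 0.35) and of JAK1 (-0.098 to 0.36) also differed in sign. TNFAIP3 and NFKBIA differed by 0.65 on this measure. NFKBIA was thus the 73rd nearest gene to TNFAIP3, and TNFAIP3 was the 562nd nearest to NFKBIA.

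Markers of cell types also varied between the arrays. The 5 tested smooth muscle markers had median log2 ratios of -0.44, -0.11, 0.40 and -0.61 on arrays 1 to 4, and their summed signal ran from 202439 to 462534 units in OXA channels and from 172389 to 568912 in non-treated channels. TNFAIP3 had its highest ratio on array 4, where smooth muscle markers were lowest, and its lowest on array 3, where they were highest. The part of smooth muscle RNA in the TNFAIP3 ratio was not tested. Of 11 macrophage markers, 8 were tested (CD163, CD14, AIF1, VSIG4, C1QA, C1QB, C1QC and MRC1), LYZ was too dim and the other two had no named probe. Their median log2 ratios were 0.70, -0.66, 1.98 and 0.73 on arrays 1 to 4, and their summed signal ran from 1309 to 9092 units in OXA channels and from 1424 to 5404 in non-treated channels. TNFAIP3 and the NFKBIA probe A_72_P165846 had their lowest ratios on array 3, where macrophage markers were highest, and the part of macrophage RNA was not tested. Of 8 markers of uterine epithelium, 4 were tested (KRT8, EPCAM, MUC4 and CDH1) and CLDN4 was too dim. Their medians were -1.46, 2.06, -1.04 and 1.98, with summed signals from 81.5 to 8058 units in OXA channels and from 199 to 2052 in non-treated channels. NFKBIA had its higher ratios on the arrays where epithelial markers were high, which are also those with OXA in Cy3. The part of epithelial RNA in the NFKBIA ratio was not tested. Of 3 neutrophil markers, S100A8 and S100A12 were tested and S100A9 was too dim. Their medians were 0.72, 0.86, -1.99 and 0.88, with summed signals from 271 to 5690 units in OXA channels and from 120 to 8190 in non-treated channels, and array 3 was the lowest for these markers and for TNFAIP3 and the NFKBIA probe A_72_P165846. This part was not tested either. Endothelial markers, with 4 of 6 tested, had medians of -0.40, -0.18, 0.26 and 0.59, and fibroblast markers, with 2 of 4 tested, had -0.16, -0.40, 0.06 and -0.86.

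**Figure D5:**
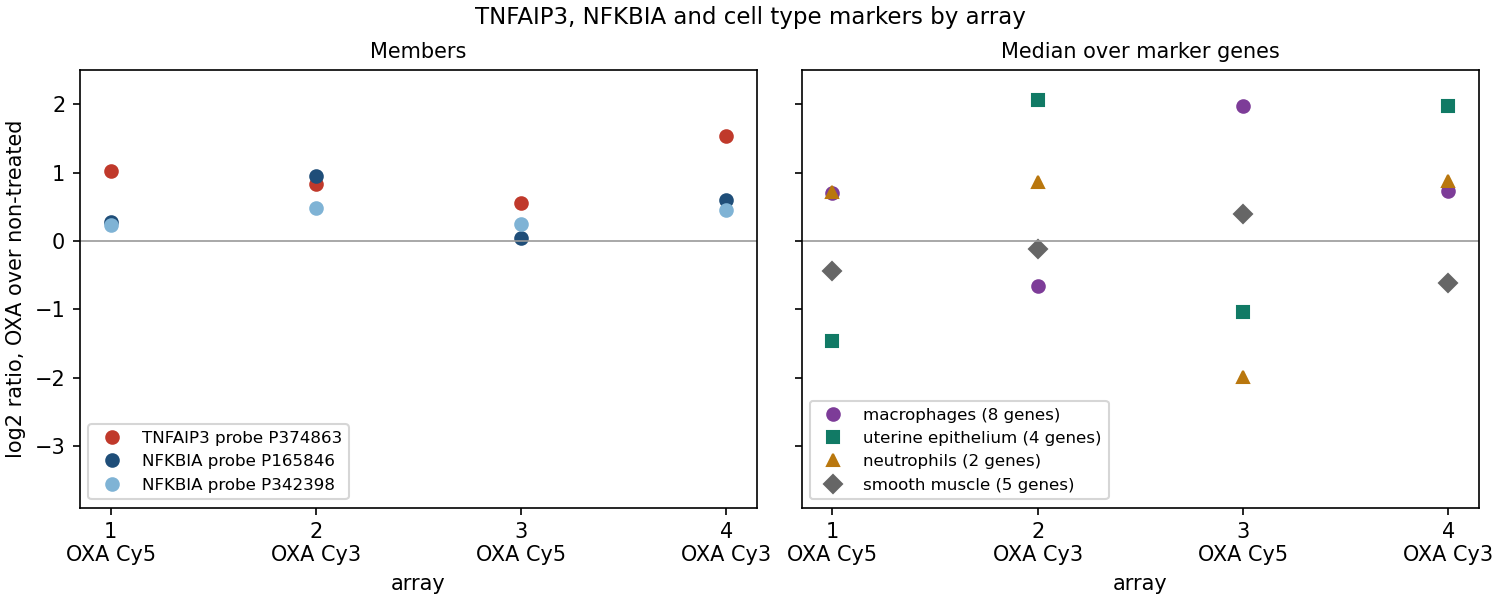
Log2 ratio of OXA over non-treated by array for the 3 member probes (left) and the median over tested marker genes of 4 cell types (right), on a shared axis. Epithelial markers are at 2.06 and 1.98 on arrays 2 and 4 and below 0 on arrays 1 and 3, macrophage markers are at -0.66 on array 2 and above 0 on the others, and smooth muscle markers are highest on array 3, at 0.40.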

How the data were processed

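Total RNA of 4 pairs of explants was hybridised to 4 dual-colour Agilent arrays. Per the file headers, Agilent Feature Extraction (version 10.7.3.1) wrote the deposited scanner files, which hold spot and background intensity, processed intensity per dye and a log10 ratio of Cy5 over Cy3 with its error. A deposited table gives log2 ratios. Regressed on the scanner ratio of its array, a column had a slope of 1 where OXA was in Cy5 and of -1 where it was in Cy3, so by the sample labels OXA is the numerator in every column. Over all probes its medians were 0.10, 0.10, -0.19 and 0.07, with no further centring found, and over tested probes they were 0.00, -0.05, 0.00 and 0.01. The software's background and dye correction are part of these ratios, and the number of arrays limits the precision.

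Tested probes were those called well above background in at least 3 OXA channels or at least 3 non-treated channels (19505 of 43603 probes). limma 3.58.1 in R 4.3.3 fitted a term for OXA and a term for dye to the deposited ratios, two-sided, with Benjamini-Hochberg adjustment over all tested probes at 0.05, with 2 residual and 4.10 prior degrees of freedom. A ratio was missing on some array for 5 tested probes, which do not include the members. The fit was tested on simulated data. The labels speak of 4 animals and 4 separate experiments but not of which explants share an animal.

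Probe accessions, stripped of versions, were looked up in a RefSeq gene table (Sscrofa11.1, used only for names), which named 6700 probes of 3029 genes. The other 36903 probes stayed unnamed here. A gene was read by its brightest tested probe. From each role of the NF-kappaB list, the 3 brightest genes were named, and for each member the 5 genes with the most similar ratios, while genes named outside this rule are marked as such or are those behind a count. Members and lists were chosen with earlier results of these data known. Alternatives were normexp (offset 50) or no background subtraction with loess on median signals, median centring, other dye orientations, no filter or a stricter one, no dye term, a separate-channel fit, the mean over probes, and leaving out each array. No probe, promoter or protein sequence was used here.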

Additional observations from a re-analysis of the deposited data

Results flagged for a closer look

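Of 38 sets of 4 array values, 2 held a value beyond Dixon's critical ratio, which chance alone exceeds in about 5% of sets. Both belong to the NFKBIA probe A_72_P342398. Its OXA channel read 7621 intensity units on array 2 and 3914 to 4091 on the other arrays, and its non-treated channel read 5434 units there, against 2985 to 3368 elsewhere. The levels are not normalized between arrays, and the log2 ratio of this probe on array 2 (0.49) did not stand apart from those of the other arrays.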

How the results depend on the processing

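Every fit to the ratios pairs the channels of an array, and the separate-channel fit, with array as a random block, also called 0 probes. The estimates for TNFAIP3 and NFKBIA kept their sign under normexp, no background subtraction, centring, the mean over probes and each array left out. With an array left out or the probes averaged, this sign was fixed in advance, since the genes were chosen with every ratio above 0. The estimates over all arrays also kept their sign with array 2 or array 4 turned, but the turned array itself then read below 0 for both genes. With array 4 turned TNFAIP3 moved to 0.43. When Cy5 was taken to mark OXA throughout, TNFAIP3 was at -0.19, NFKBIA at -0.31 and the median of the NF-kappaB list at -0.018, and with array 4 turned the list's median was -0.10. Leaving out an array gave 0.81 to 1.17 for TNFAIP3, 0.39 to 0.56 for NFKBIA, -0.048 to 0.20 for the list's median and 0 to 1 called genes of the list. In these fits limma called 1 to 1093 probes for OXA, 1093 of them without array 2, and 12 to 1149 for dye, 1149 of them without array 4, where the spread comes from a single pair of arrays. Without arrays 1, 3 and 4 it called 1, 5 and 6 probes for OXA, and without arrays 1, 2 and 3 it called 53, 154 and 12 for dye. Of 346 values of 28 other named genes and the NFKBIA probe A_72_P342398 under alternatives, 325 moved by less than 1 SD over arrays, and 52 changed sign. The 346 include values of the 28 genes with no filter and with the stricter filter. A filter cannot change the estimate of a probe, so those values could not move. Of the 28 genes, 17 changed sign when Cy5 marked OXA throughout. The TNFAIP3 ratio was 0.64 to 0.65 with loess on median signals and 0.99 as deposited, and the cause was not tested. Its lowest signal was 8.31 times the local background.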
